A study of Mus musculus with 36 samples.

Results

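The 4 libraries described here are cortex libraries of 25-day-old mice (postnatal day 25, P25) that carry library numbers 29 to 32 and replicate number 2 in the labels. They are 4 of the 12 libraries sequenced at that age and of the 36 in the series, which also covers 2 embryonic ages. They were picked by those column names with results of the same counts already known, so their differences from the other 8 libraries of that age are given as a description, with no test. The 4 come from 1 wild type male, 1 wild type female, 1 heterozygous male and 1 heterozygous female. The heterozygous mice carry 1 functional copy of Chd8 (Chd8+/-), which encodes a chromatin remodeller linked to autism. The other 8 libraries hold 2 animals of each of the same 4 groups, with replicate numbers 1 (library numbers 25 to 28) and 3 (library numbers 33 to 36). All mice are labelled C57BL/6J, and each library is polyA RNA of the cerebral cortex of 1 animal after its medial part had been taken away. The animals came as pairs matched for litter and sex. The labels do not say whether a replicate number marks a litter, a dissection day or a sequencing batch, so these cannot be told apart, and p-values measure the spread between these animals.

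The cerebral cortex borders the hippocampus, the amygdala, the striatum and the choroid plexus, and each of these tissues has genes it transcribes far more strongly than neocortex does. A small shift in the cut of a dissection therefore moves such genes in bulk RNA. Other genes follow the state of the animal: neuronal firing induces rapid activity-response genes such as Fos, Arc and Npas4 within minutes, and these transcripts decay again soon after. In bulk tissue, fewer cells of a type and less RNA per cell cannot be told apart.

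Levels are given as CPM, read counts brought to a common library total with scaling by the trimmed mean of M values. The 4 values of a gene always stand in the order wild type male 2, wild type female 2, heterozygous male 2, heterozygous female 2, and those of the other 8 libraries as lowest, median and highest. Log2 differences are the 4 libraries minus the other 8, from a fit with genotype and sex as covariates, with its standard error (SE). Of 19445 genes, 435 had a Benjamini-Hochberg adjusted p under 0.05 in edgeR in this contrast, which is 2.24% (314 higher, 1.61%, and 121 lower, 0.622%). In 438 genes (2.25%) the 4 libraries did not overlap the other 8. Since the libraries were picked for this difference, nothing is read from these shares. The count rested on single libraries, being 102 without wild type male 2, 177 without heterozygous female 2 and 211 without heterozygous male 2. Without wild type female 2 it was higher, at 489. It was 440 in males alone and 29 in females alone. Most of the differences were modest, with a median size of 0.38 on the log2 scale among the 435 genes, and 60 of them reached 1. The median over all genes was -0.0029, and 51.1% of all genes had a negative difference.

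The 4 libraries held 29195206 to 36452210 counts, and the other 8 held 25325593 to 108257517. Mitochondrially encoded genes took 5.61% to 6.00% of the counts of the 4 libraries and 5.58% to 7.60% of those of the other 8. Upper-layer and deep-layer neuron markers, which define the labelled tissue, were abundant in every library, with summed levels of at least 859 and 595 CPM. The first component of log2 CPM, with 18.1% of the variance, put both number 2 males at one end, at -28.0 and -27.3, while wild type female 2 was at 5.02 and heterozygous female 2 at -5.42. On the second component (15.1%) all 4 were negative, from -26.8 to -4.89, but so were 3 of the other 8 libraries, at -9.82, -8.86 and -7.28. The 4 libraries therefore do not form a separate group on either component.

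**Figure D1:**
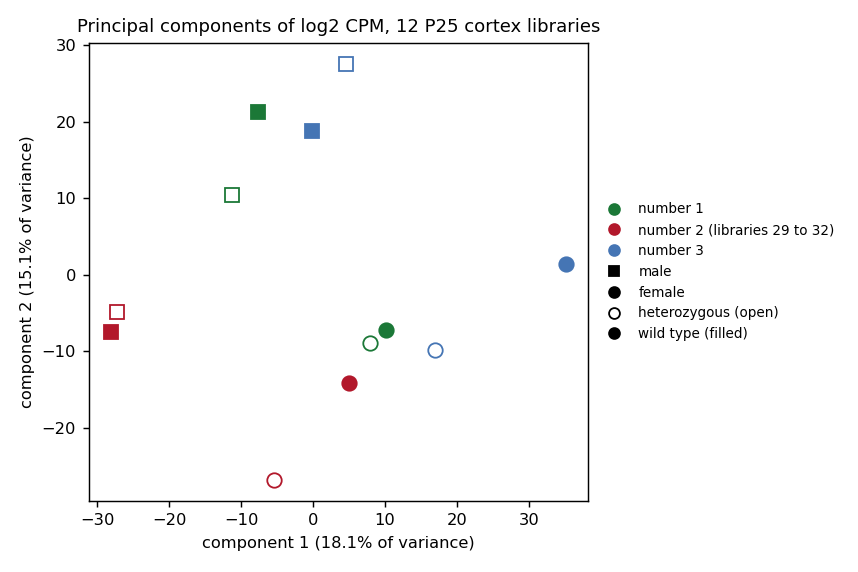
Principal components of log2 CPM of the 12 P25 cortex libraries, 1 symbol per library, with component 1 (18.1% of the variance) on the horizontal axis and component 2 (15.1%) on the vertical axis; colours are replicate numbers, squares males, circles females, open symbols heterozygous. The 4 red symbols (libraries 29 to 32) lie at negative values of component 2, next to 3 of the other libraries, and their 2 squares lie at the left end of component 1.

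The genes that set the 4 libraries apart most were higher in them, and included the gene of a hormone precursor and 4 genes of receptors. The 12 genes with the largest positive difference, among the 170 at a mean of 1 CPM or more that passed the threshold without overlap, were 2.60 to 7.26 times as high in the mean of the 4 libraries. Gpr101, an orphan G protein-coupled receptor, stood at 11.4, 7.34, 13.6 and 10.2 CPM in the 4 libraries and at 0.671, 1.17 and 2.89 CPM in the other 8 (log2 difference 2.91, SE 0.26). Every one of the 4 was at least 7.34 CPM, and the highest of the others, heterozygous male 1, was at 2.89 CPM. Dlk1, a paternally expressed ligand-like protein of the Notch family, was at 7.49, 5.43, 10.2 and 6.36 CPM against 0.671, 1.61 and 2.45 CPM (2.16, SE 0.18). The heterozygous male was again highest among the 4, and the same male number 1 was highest among the others.

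Trh, the gene of thyrotropin-releasing hormone, and Trhr, the gene of its receptor, were both among the 12. Trh was at 3.81, 3.52, 4.69 and 2.86 CPM against 0.701, 0.833 and 1.66 CPM (log2 difference 1.97, SE 0.17). Trhr was at 6.92, 7.17, 8.55 and 6.55 CPM against 1.41, 1.94 and 3.85 CPM (1.70, SE 0.18). Both genes were low transcripts in which all 4 libraries lay above all 8 others. Dio3, the deiodinase that inactivates thyroid hormone, was at 2.06, 1.57, 2.51 and 1.19 CPM against 0.305, 0.663 and 1.02 CPM (1.44, SE 0.23). Crym, whose product binds thyroid hormone and which marks some deep-layer neurons, was at 60.8, 30.1, 47.1 and 42.2 CPM against 15.9, 22.4 and 28.9 CPM. It did not overlap but missed the threshold of the fit, and wild type female 2 came close to the highest of the others.

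Npy2r, a receptor for neuropeptide Y, was at 13.3, 6.45, 11.6 and 8.51 CPM against 2.33, 3.16 and 5.85 CPM (log2 difference 1.51, SE 0.22). Htr4, a serotonin receptor, was at 4.45, 2.59, 3.67 and 2.95 CPM against 0.760, 1.37 and 2.06 CPM (1.37, SE 0.23). In both genes wild type female 2 was the lowest of the 4, yet still above the other 8. Cpne7, which encodes a calcium-dependent membrane-binding copine and was the most abundant of the 12, was at 89.3, 35.9, 63.6 and 55.7 CPM against 18.8, 20.9 and 35.8 CPM (1.38, SE 0.25). Here wild type female 2 and the highest of the others nearly met. The remaining 4 were Baiap3, which acts in dense-core vesicle release (8.77 to 17.3 CPM against 2.29 to 6.95 CPM), the diacylglycerol kinase gene Dgkk (2.63 to 4.72 CPM against 0.552 to 1.80 CPM), Arhgap36 (2.01 to 3.83 CPM against 0.434 to 1.36 CPM) and Stpg1 (2.12 to 2.90 CPM against 0.521 to 1.75 CPM). The last gene inside this choice was Htr4, with a log2 difference of 1.37, and the first outside it was Olfm4, with 1.23.

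The order of libraries was similar across these 12 genes. Heterozygous male 2 was the highest of all 12 libraries in 8 genes, wild type male 2 in 3 and wild type female 2 in 1. Wild type female 2 was the lowest of the 4 in 7 genes and heterozygous female 2 in 4. Among the other 8 libraries, heterozygous male 1 and heterozygous female 3 were each the highest in 5 genes, and wild type female 3 was the lowest in 6. All 12 differences were positive against number 1 and against number 3 taken separately, as the choice of genes without overlap requires.

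**Figure D2:**
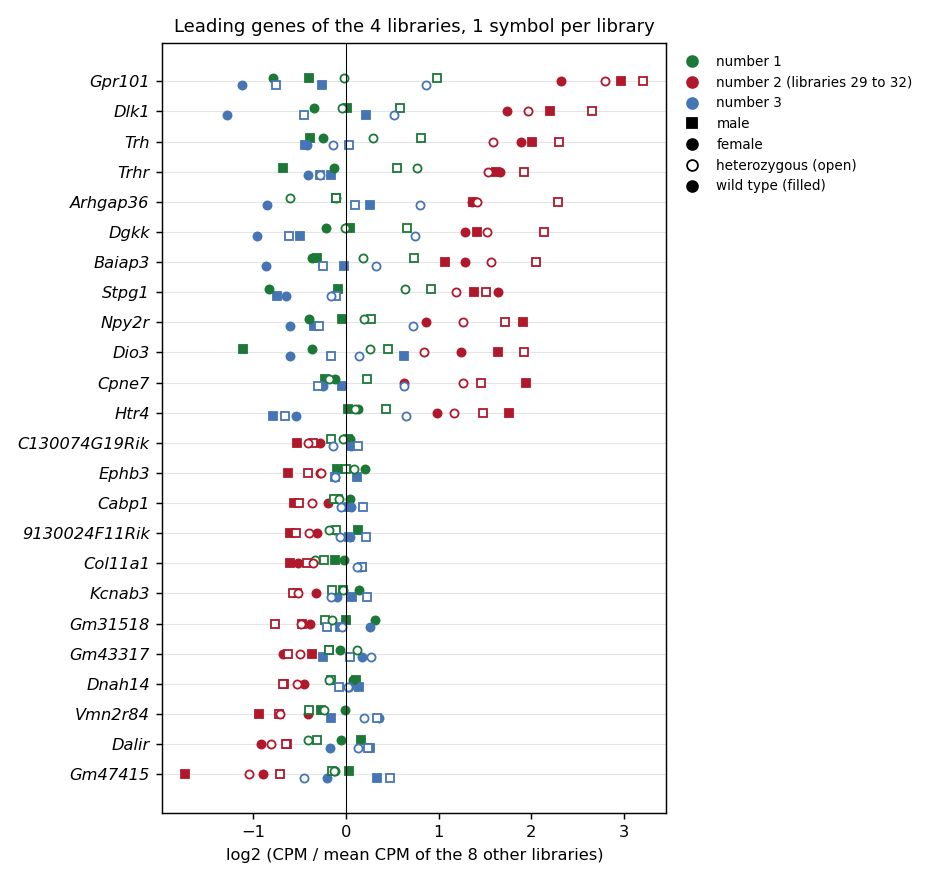
Levels of the 24 leading genes in the 12 P25 libraries as log2 of CPM over the mean CPM of the 8 other libraries, 1 symbol per library and gene; red is number 2 (libraries 29 to 32), green number 1, blue number 3, squares males, circles females, open symbols heterozygous. In every gene the 4 red symbols lie on one side of the other 8, farthest in Gpr101 (log2 difference 2.91) and least in C130074G19Rik (-0.39).

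Promoter sequences of Trh and Dlk1 are shown because these genes stayed past the threshold in 24 of 24 alternative settings. RefSeq tables on build GRCm38.p6 held 17 of the 24 leading genes. Each sequence is the 250 bases before the annotated start, 5′ to 3′ on the gene's strand, with capitals for TGACG (the core of a cAMP response element) and AGGTCA (the core of a nuclear receptor element) on either strand. Trh lies at chr6:92244651-92244900 on the minus strand and Dlk1 at chr12:109452573-109452822 on the plus strand.
Trh: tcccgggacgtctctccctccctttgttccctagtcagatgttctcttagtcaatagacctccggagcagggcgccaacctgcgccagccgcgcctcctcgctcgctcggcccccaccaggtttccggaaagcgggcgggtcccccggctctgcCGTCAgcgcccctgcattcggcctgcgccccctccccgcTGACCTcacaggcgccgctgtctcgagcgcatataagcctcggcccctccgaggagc
Dlk1: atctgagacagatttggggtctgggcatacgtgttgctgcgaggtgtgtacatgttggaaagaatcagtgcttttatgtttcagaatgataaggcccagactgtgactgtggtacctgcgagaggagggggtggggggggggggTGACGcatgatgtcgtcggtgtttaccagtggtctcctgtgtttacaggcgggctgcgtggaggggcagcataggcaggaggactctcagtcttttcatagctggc
Trh held both motifs and Dlk1 the first of them. Of the 17 leading promoters 4 held TGACG, against 17.9% of 27025 promoters in the table, and 4 held AGGTCA, against 13.8%. These are matches of letters and say nothing of whether a factor binds there.

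Genes lower in the 4 libraries differed by less. The 12 with the most negative difference, of 49 that met the same conditions, were at 0.483 to 0.763 times the mean of the other 8. Kcnab3, a potassium channel subunit of mature neurons, was at 36.6, 42.4, 35.7 and 36.9 CPM against 47.4, 51.7 and 62.1 CPM (log2 difference -0.49, SE 0.07). Cabp1, a neuronal calcium-binding protein, was at 103, 133, 107 and 118 CPM against 139, 151 and 173 CPM (-0.41, SE 0.07). In both, wild type female 2 was nearest to the others without meeting them. Ephb3, a receptor for ephrins, was at 16.2, 20.5, 18.8 and 20.6 CPM against 22.9, 24.1 and 28.7 CPM (-0.40, SE 0.07). Col11a1, a collagen gene, was at 17.9, 18.98, 20.3 and 21.3 CPM against 21.6, 28.2 and 30.8 CPM (-0.47, SE 0.10). The 4 values of Col11a1 were close to each other, and the lowest of the others was just above them. The dynein gene Dnah14 (2.86 to 3.34 CPM against 4.02 to 5.06 CPM), the vomeronasal receptor gene Vmn2r84 (5.53 to 7.99 CPM against 8.05 to 13.5 CPM), 9130024F11Rik, C130074G19Rik, Dalir, Gm43317, Gm31518 and Gm47415 made up the rest. Wild type male 2 was the lowest of all libraries in 7 of these 12 genes, heterozygous male 2 in 3 and wild type female 2 in 2. C130074G19Rik was the last inside the choice, at -0.39, and Pou3f2, a transcription factor of upper-layer neurons, the first outside it, at -0.38.

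Lists of marker genes were then read against the whole table, in which 2.24% of genes passed the threshold. Upper-layer neuron markers were negative in 10 of 11 genes, with a median log2 difference of -0.29, and 3 passed lower. These were Cux1 (log2 difference -0.27, SE 0.06), Cux2 (-0.30, SE 0.06) and Rspo1 (-0.43, SE 0.10), the first 2 being transcription factors of layers 2 to 4. Cux2 was at 125, 141, 116 and 132 CPM against 139, 160.2 and 172 CPM, so wild type female 2 fell within the range of the others. The summed level of the list was 859, 1096, 925 and 956 CPM, below the others' range of 1003 to 1250.2 CPM in all of the 4 but wild type female 2. Otof was the 1 marker with a positive difference, and it passed higher (27.2 to 33.6 CPM against 15.7 to 28.3 CPM).

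Deep-layer neuron markers went both ways, with 10 of 15 positive and a median of 0.06. Ntsr1, a receptor that marks corticothalamic neurons of layer 6, was at 7.83, 5.77, 7.17 and 8.38 CPM against 4.58, 5.45 and 6.52 CPM (0.41, SE 0.10). Tbr1, a transcription factor of layer 6 and other glutamatergic neurons, was at 120.3, 144, 129 and 136 CPM against 148, 153 and 169.6 CPM (-0.23, SE 0.05). Thus 2 markers of the same layer stood on opposite sides, Tbr1 without overlap. Among 6 subplate and layer 6b markers, 2 passed higher, Trh above and Moxd1 at 8.47, 6.86, 7.87 and 7.61 CPM against 4.79, 5.35 and 6.57 CPM. The list as a whole went both ways, with 4 positive, 2 negative and a median of 0.07. Its summed level overlapped, at 108 to 121 CPM against 91.1 to 117 CPM, and its marker Ccn2 had a difference of -0.07 (SE 0.09).

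Genes of mature neurons were negative in 13 of 13, with a median of -0.16, and 4 passed. Nefm, the medium neurofilament subunit, was at 246, 302, 259.7 and 259 CPM against 305, 338 and 374 CPM (log2 difference -0.35, SE 0.05). Kcnab3 above and Snap25, a protein of synaptic vesicle fusion (-0.23, SE 0.05), were also among them. The list summed to 6682, 7430.4, 6527 and 6868 CPM in the 4 libraries and to 7224 to 7943 CPM in the others, and again wild type female 2 lay within the others' range. Immature neuron genes were positive in 9 of 12 (median 0.14), and Dpysl3, a growth cone protein, passed higher (0.35, SE 0.06). Perineuronal net genes had a median of -0.05, and Hapln4, a link protein of these nets, passed lower (-0.28, SE 0.06).

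Interneuron markers went both ways, with 3 past the threshold higher and 2 lower. Calb2, calretinin, was at 13.3, 8.77, 13.5 and 16.98 CPM against 5.13, 6.08 and 6.82 CPM (log2 difference 1.09, SE 0.12), highest in heterozygous female 2. Nos1, neuronal nitric oxide synthase, was at 79.7, 57.2, 72.2 and 68.1 CPM against 35.7, 39.1 and 48.5 CPM (0.78, SE 0.07). Reln, reelin, was at 132, 125, 129 and 127 CPM against 75.6, 95.2 and 111 CPM (0.42, SE 0.07). These 3 did not overlap the other libraries. Pvalb, the calcium buffer of fast-spiking basket cells, was lower without overlap, at 25.98, 32.3, 31.98 and 31.4 CPM against 33.4, 38.6 and 41.2 CPM (-0.33, SE 0.07), and Npy was lower with a small overlap (-0.25, SE 0.06). Of the 15 markers 10 were positive, with a median of 0.11. Their summed level, 893 to 969 CPM, lay above that of the other 8 libraries (764 to 875 CPM), a sum in which Reln and Nos1 weigh most of the members that passed higher.

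**Figure D3:**
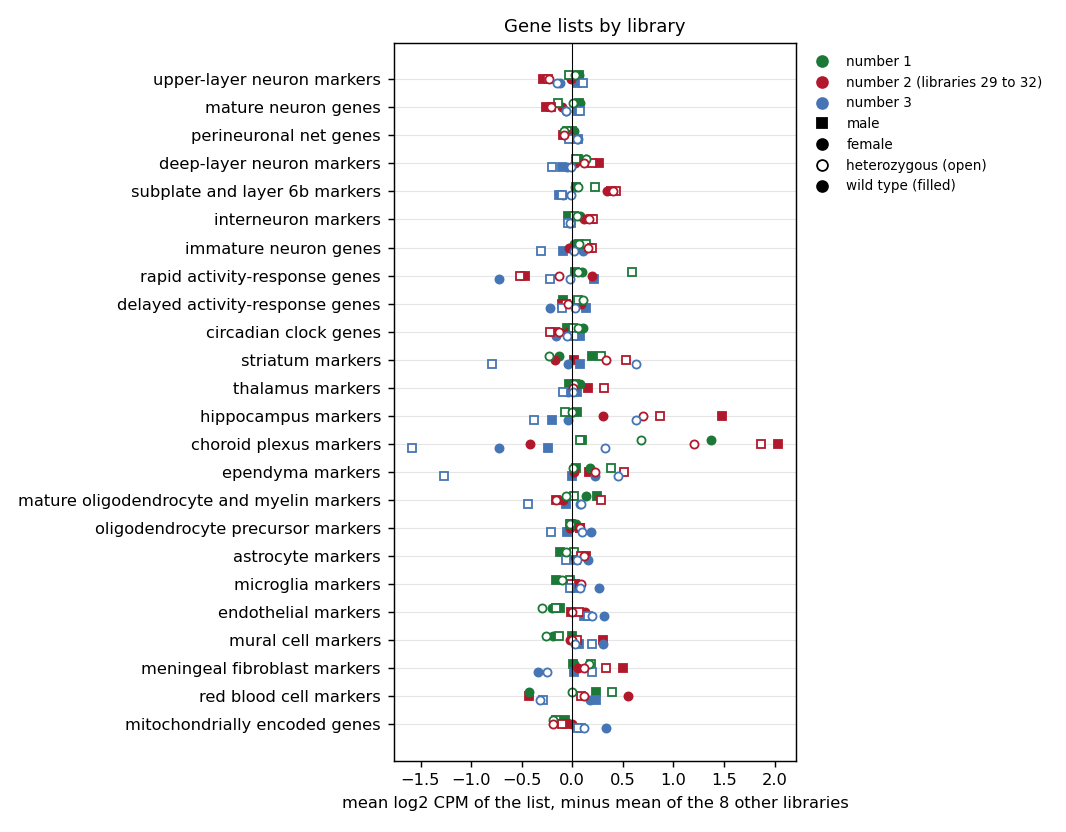
Mean log2 CPM of 24 gene lists in the 12 P25 libraries, minus the mean of the 8 other libraries, 1 symbol per library; red is number 2 (libraries 29 to 32), green number 1, blue number 3, squares males, circles females, open symbols heterozygous. Choroid plexus markers spread most, and in them and in hippocampus markers wild type female 2 is the lowest of the red symbols. In glial, vascular and blood lists the red symbols overlap the other 8. In microglia, endothelial and mural cell markers all green symbols lie below all blue ones.

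Markers of choroid plexus and hippocampus, which border the cortex, were higher in part of the 4 libraries, not in all of them. Choroid plexus markers were positive in 14 of 14 genes with a median of 1.15, but none passed the threshold or was free of overlap. Their summed level was 295, 30.8, 256 and 165 CPM in the 4 libraries and 9.20 to 192 CPM in the others. Ttr, transthyretin, the main secreted protein of that epithelium, was at 221, 14.8, 187 and 123 CPM against 1.67, 38.2 and 143 CPM (log2 difference 1.73, SE 1.05). Wild type female 2 was thus low, and among the others wild type female 1 was high, at 143 CPM. Ttr was detected in every library, the lowest being heterozygous male 3. Ependyma markers, from the lining of the same ventricles, had a median of 0.05 with none past the threshold.

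Hippocampus markers were positive in 9 of 10, with a median of 0.77 and none past the threshold. They summed to 102, 55.5, 83.4 and 69.3 CPM in the 4 libraries and to 49.5 to 76.8 CPM in the others. Fibcd1, a marker of CA1 pyramidal cells, was at 26.6, 9.63, 19.7 and 18.2 CPM against 7.22, 8.12 and 22.8 CPM. It was high in 3 of the 4 and, among the others, in heterozygous female 3. Dsp, desmoplakin, which marks the dentate gyrus, was at 6.85, 0.717, 2.21 and 1.61 CPM against 0.382, 0.485 and 1.76 CPM, and C1ql2, a secreted synaptic protein of dentate granule cells, was at 5.20, 1.02, 3.18 and 1.89 CPM against 0.0540, 0.699 and 1.51 CPM. Wild type male 2 was the highest library in all 3 of these genes, and wild type female 2 was within the range of the others.

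Cerebellar markers were high in 1 library. Gabra6, the GABA receptor subunit of cerebellar granule cells, was at 14.6 CPM in heterozygous female 2 and at 0.798 CPM or less in the other 11 libraries. Fat2 was at 25.5 CPM there and at 2.21 CPM or less elsewhere, Cbln3 at 22.8 against at most 1.85 CPM, and Cnpy1 at 9.44 against at most 0.964 CPM. The list, which was written after leading genes of the contrast had been seen, summed to 14.3, 8.43, 12.2 and 93.2 CPM. Striatum markers (422 to 578 CPM against 338 to 679.9 CPM) overlapped, as did claustrum and lateral cortex markers (552 to 617 CPM against 508 to 618 CPM), with medians of 0.14 and 0.01. Thalamus markers had a median of 0.10, and both number 2 males, at 152 and 160.3 CPM, were above the other libraries.

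Of the other 5 lists written at that later stage, 3 hold leading genes and so lean on the choice itself. Amygdala markers were positive in 6 of 6 (median 0.38), with Dlk1 and Esr1 past the threshold. Esr1, an oestrogen receptor, was at 4.42, 5.02, 4.83 and 4.98 CPM against 2.18, 2.96 and 4.09 CPM (log2 difference 0.70, SE 0.12). All 4 libraries lay within a narrow span above the other 8. Only 4 of 14 hypothalamus markers were high enough to test, and 1 of them, Trh, passed. Septum and basal forebrain markers were positive in 5 of 6 (median 0.31) and olfactory bulb markers in 3 of 5 (median 0.01), 1 of which, Cdhr1, passed higher. Paternally expressed imprinted genes were positive in 15 of 19, with a median of 0.14, and 7 passed higher. Nnat, neuronatin, was at 106, 62.1, 90.2 and 84.3 CPM against 29.1, 33.3 and 51.3 CPM (1.23, SE 0.17). The others were Dlk1, Dio3, Magel2 (1.02, SE 0.21), Ndn (0.33, SE 0.08), Peg10 (0.32, SE 0.07) and Usp29 (0.24, SE 0.05).

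Wild type female 2 had 30.8 CPM of choroid plexus, 55.5 CPM of hippocampus and 8.43 CPM of cerebellum markers, all within the range of the other 8 libraries. Its amygdala markers, a list that holds the leading gene Dlk1, summed to 32.6 CPM, at the top of the 26.4 to 32.6 CPM of the other 8, and the other 3 libraries of the set lay above that range at 44.1, 52.8 and 40.1 CPM. Wild type female 2 also had 7.34 CPM of Gpr101, 5.43 CPM of Dlk1 and 3.52 CPM of Trh, each above that gene's range in the other 8. The rule for leading genes requires this of all 4 libraries, so nothing is read from it. With the choroid plexus level as a covariate, a setting chosen after seeing the data, 100 genes passed in place of 435, and 17 of the 24 leading genes were among them. In that fit Gpr101 had a log2 difference of 2.73, Dlk1 of 1.97 and Trh of 1.93, and 7 of the 24 leading genes no longer passed. The fit uses the same counts that chose these genes, so nothing is read from their size in it. The part of choroid plexus, amygdala, hypothalamus or any other bordering tissue in the leading genes was not tested.

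**Figure D4:**
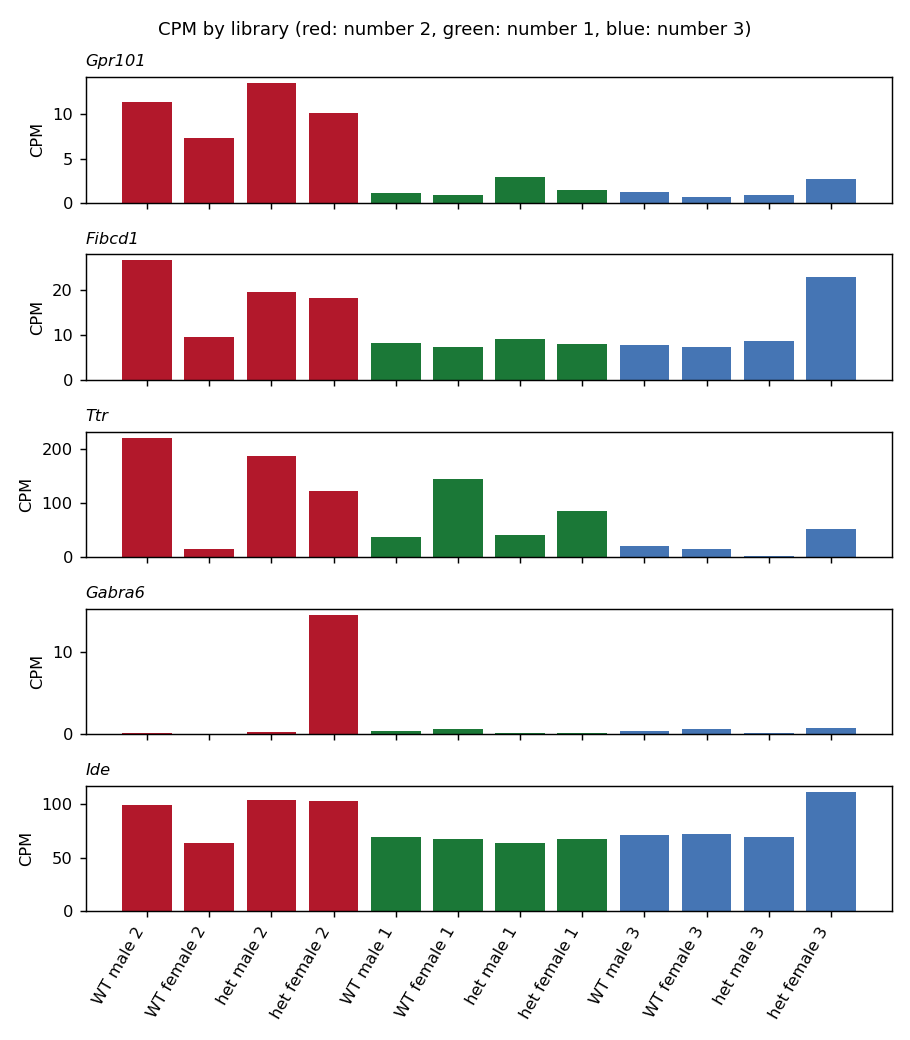
CPM of Gpr101, Fibcd1 (hippocampus), Ttr (choroid plexus), Gabra6 (cerebellum) and Ide in each P25 library, 1 bar per library and 1 linear axis from 0 per gene; red bars are number 2 (libraries 29 to 32), green number 1, blue number 3. Gpr101 is high in all 4 red libraries, Ttr and Fibcd1 are not high in wild type female 2, Gabra6 is high in heterozygous female 2 alone, and Ide is high in 3 red libraries and in heterozygous female 3.

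Activity genes did not separate the 4 libraries from the rest. Of 29 rapid activity-response genes, 25 had a negative difference and the median was -0.26, but none passed the edgeR threshold and none was free of overlap. The median was -0.42 against number 1 and -0.07 against number 3. Fos, the first-responding transcription factor gene, was at 12.9, 29.4, 14.8 and 19.5 CPM against 9.23, 31.6 and 52.7 CPM (log2 difference -0.69, SE 0.43). Arc, whose product acts at active synapses, was at 88.1, 282, 87.5 and 152 CPM against 60.9, 190.3 and 357 CPM (-0.50, SE 0.54). Within the 4 libraries wild type female 2 was high and both males were low, and the other 8 spanned a wider range on both sides. Npas4, a neuron-specific activity factor, was at 11.3, 17.6, 8.63 and 18.5 CPM against 8.88, 19.7 and 37.6 CPM (-0.51, SE 0.39), and Nr4a1, an orphan nuclear receptor, was at 50.6, 98.03, 47.1 and 70.7 CPM against 39.8, 85.7 and 139 CPM (-0.37, SE 0.34).

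The libraries stood in a similar order in most of these genes. Among the 27 rapid genes at 1 CPM or more, wild type female 2 was the highest of the 4 in 23, and heterozygous male 2 or wild type male 2 the lowest in 14 and 10. Over all 12 libraries, heterozygous male 1 was the highest in 19 genes and wild type female 3 the lowest in 16, and neither belongs to the 4. The summed level was 909.7, 1500.0, 895 and 1112 CPM in the 4 libraries, 1868 CPM in heterozygous male 1 and 796 CPM in wild type female 3. Of 25 delayed activity-response genes, such as Bdnf and Homer1, 18 were negative with a median of -0.04, and none passed.

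The promoters of 3 rapid genes are shown for the TGACG letters, in capitals on either strand, that recur among these co-varying genes. They are again the 250 bases before the start on GRCm38.p6, for Fos at chr12:85473640-85473889 on the plus strand, Npas4 at chr19:4989972-4990221 on the minus strand and Nr4a1 at chr15:101266596-101266845 on the plus strand.
Fos: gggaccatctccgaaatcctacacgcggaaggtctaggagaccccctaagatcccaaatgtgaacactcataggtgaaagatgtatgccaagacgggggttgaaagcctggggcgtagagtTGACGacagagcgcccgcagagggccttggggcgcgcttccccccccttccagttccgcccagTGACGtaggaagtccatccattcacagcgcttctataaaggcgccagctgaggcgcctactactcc
Npas4: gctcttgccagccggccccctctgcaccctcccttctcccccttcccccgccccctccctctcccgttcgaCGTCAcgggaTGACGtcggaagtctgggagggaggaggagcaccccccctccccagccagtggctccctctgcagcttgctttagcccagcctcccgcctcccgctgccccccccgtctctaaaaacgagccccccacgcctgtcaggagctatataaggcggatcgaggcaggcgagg
Nr4a1: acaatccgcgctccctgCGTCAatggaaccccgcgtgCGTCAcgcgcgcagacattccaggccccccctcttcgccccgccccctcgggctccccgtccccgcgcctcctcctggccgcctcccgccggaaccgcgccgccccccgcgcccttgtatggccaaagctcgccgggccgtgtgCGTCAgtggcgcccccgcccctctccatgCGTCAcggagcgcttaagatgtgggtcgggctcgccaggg
Of the rapid genes at 1 CPM or more, 21 of 27 were in the table, and 15 of these 21 held TGACG, against 17.9% of 27025 promoters. The full palindrome TGACGTCA, which contains TGACG, was in 3 of 21 and in 1.62% of all.

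**Figure D5:**
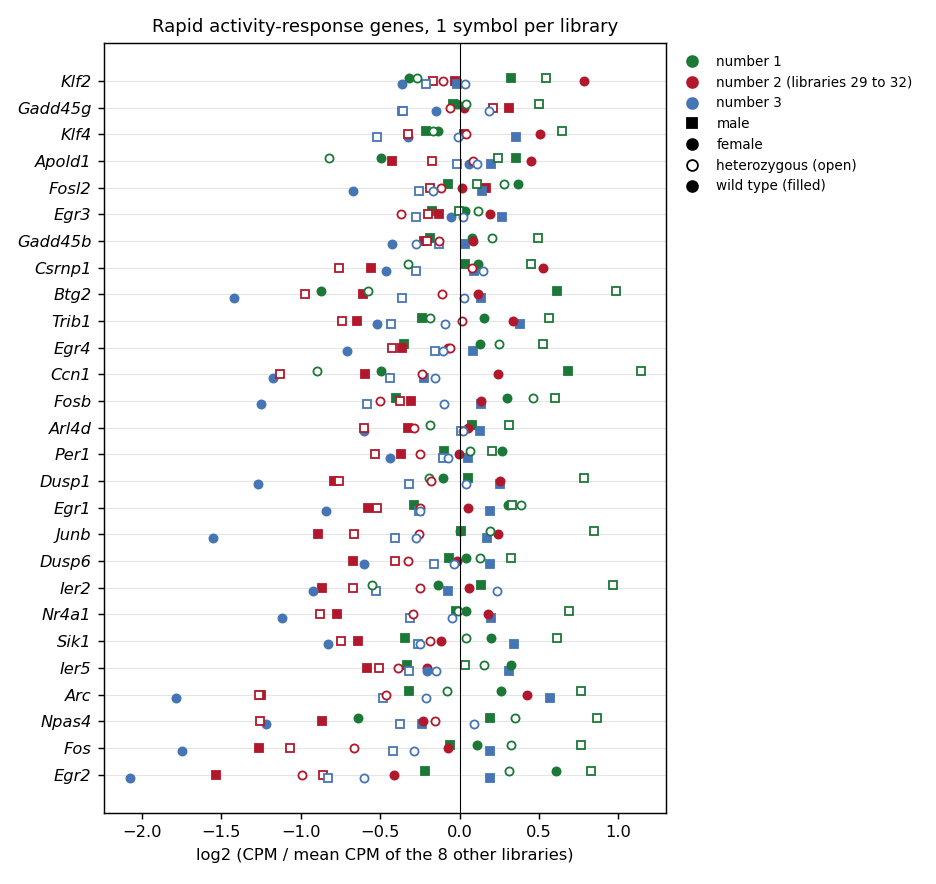
Levels of the 27 rapid activity-response genes at 1 CPM or more in the 12 P25 libraries as log2 of CPM over the mean CPM of the 8 other libraries, 1 symbol per library and gene; red is number 2 (libraries 29 to 32), green number 1, blue number 3, squares males, circles females, open symbols heterozygous. In none of the 27 genes do the 4 red symbols all lie on one side of the other 8; the open green square (heterozygous male 1) is highest in 19 genes and the filled blue circle (wild type female 3) lowest in 16.

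Circadian clock genes were negative in 17 of 17, with a small median of -0.13 and none past the threshold. Dbp, a clock output gene with a strong daily rhythm in many tissues, was at 49.3, 45.3, 48.3 and 55.2 CPM against 45.8, 53.9 and 58.2 CPM, and the ranges overlapped. Lists of glucocorticoid response (median 0.06), heat shock (-0.04), unfolded protein response (0.03), hypoxia (-0.09), cholesterol synthesis (-0.04) and cell cycle (-0.10) had no member past the threshold either. In the interferon list the median was -0.0018, again with none past it.

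Lists of glia, vessels and blood overlapped between the 4 libraries and the rest, and the few members that did not belonged to astrocytes and meningeal fibroblasts. Myelin and mature oligodendrocyte markers had a median of -0.02 (summed level 7707 to 10032 CPM against 6197 to 10233 CPM), and no member passed. New oligodendrocyte markers (0.07), oligodendrocyte precursor markers (0.08), microglia markers (0.05), endothelial markers (0.03) and mural cell markers (0.06) likewise had none. The endothelial median was 0.26 against number 1 and -0.20 against number 3. The microglia median was 0.13 and -0.05, and that of mural cells 0.24 and 0.04. Endothelial markers summed to 408 to 466 CPM in the 4 libraries, 341 to 391 CPM in number 1 and 454 to 517 CPM in number 3. Red blood cell markers had a median of 0.14, with Hbb-bs, adult beta globin, at 61.9, 125, 88.5 and 88.2 CPM against 65.03, 99.3 and 118 CPM. Blood leukocyte markers were low, at 9.41 to 12.5 CPM in all against 8.98 to 10.6 CPM, and 4 of 10 could be tested. The astrocyte list had a median of 0.01, yet Agt, the gene of the hormone precursor angiotensinogen, was at 15.8, 10.2, 18.7 and 15.5 CPM against 3.55, 6.53 and 9.24 CPM (log2 difference 1.14, SE 0.19), without overlap. Meningeal fibroblast markers were positive in 13 of 15 (median 0.27), and 2 passed. Dcn, the proteoglycan decorin, was at 33.6, 16.5, 27.6 and 19.9 CPM against 9.35, 13.8 and 16.1 CPM (0.82, SE 0.15), and Col3a1, a fibrillar collagen, had a difference of 0.37 (SE 0.09). Dcn did not overlap, while Col3a1 did, with heterozygous male 3 at 15.7 CPM and wild type female 2 at 13.3 CPM.

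Measures tied to RNA and nuclei were also close. Mitochondrially encoded genes had a median of -0.10, nuclear noncoding RNAs of -0.12, ribosomal protein genes of 0.02, nuclear genes of the respiratory chain of -0.03 and replication-dependent histone genes of -0.0058. None of their members passed the threshold. The mitochondrial median was 0.0093 against number 1 and -0.24 against number 3, and that of nuclear noncoding RNAs -0.04 and -0.19. Mitochondrially encoded genes summed to 55194 to 60657 CPM in the 4 libraries, 57033 to 57433 CPM in number 1 and 61098 to 75933 CPM in number 3. Ide, the insulin-degrading enzyme gene, which is known to differ between colonies of the strain, was at 98.7, 63.2, 104 and 103 CPM in the 4 libraries, and of the other 8 only heterozygous female 3, at 111 CPM, was above 71.6 CPM. The level of Ide thus crossed the border of the 4 libraries in both directions.

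The contrast was also split by the number it is taken against. Against number 1 alone, 281 genes passed (1.45%; 205 higher, 1.05%, and 76 lower, 0.391%). Against number 3 alone, 893 passed (4.59%; 530 higher, 2.73%, and 363 lower, 1.87%). Number 1 against number 3 gave 270 genes (1.39%), so numbers 1 and 3 differed as well. In 178 genes the 4 libraries passed against both numbers in the same direction, 137 higher and 41 lower. The 2 comparisons share the 4 libraries and are not independent of each other.

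Genotype was not used to choose the libraries and could be tested. Chd8 (ENSMUSG00000053754), the targeted gene, was at 153, 160.1, 104 and 106 CPM in the 4 libraries, so the heterozygous pair stood at 67.0% of the wild type pair, and at 69.7% in the other 8. Over all 12 libraries Chd8 fell by 0.54 (SE 0.038) on the log2 scale in heterozygous tissue (edgeR adjusted p = 7.26e-07). It was the 1 gene past the threshold (0.00514%), with 1078 genes at an unadjusted p under 0.05. This fit had sex as a covariate and no block for the litter pairs, since the labels do not say which libraries form a pair. With membership of the 4 libraries as a covariate, 3 genes passed (0.0154%), all lower in heterozygous tissue: Chd8 (adjusted p = 1.78e-07), Gm17322 (log2 fold change -0.49 without the covariate, adjusted p 0.112 without and 0.0267 with it) and Usp11, a deubiquitinase gene (-0.26, adjusted p 0.533 without and 0.0314 with it). Usp11 was at 102, 100.1, 80.7 and 82.2 CPM in the 4 libraries, wild type above heterozygous. None of the 24 leading genes differed by genotype past the threshold in either fit. Their smallest adjusted p in edgeR was 0.297 in the fit with membership of the 4 libraries as a covariate.

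Whether the genotype difference itself depended on the 4 libraries was tested as an interaction in edgeR. No gene passed (0%), with 0 in DESeq2 too, and 382 genes (1.96%) had an unadjusted p under 0.05. For Chd8 the interaction was -0.06 (SE 0.084). The 3 genes with the smallest p, Gm34466, Gm44996 and Gm49838, were all under 1 CPM, with adjusted p = 0.9999. Without heterozygous male 2, 5 genes passed. Among the 24 leading genes 1 had an unadjusted p under 0.05. The interaction was negative in 11 of the 12 leading higher genes (-1.15 to 0.28) and in 4 of the 12 leading lower genes (-0.20 to 0.42). A negative value means that the difference of the 4 libraries was lower in heterozygous than in wild type mice. These counts of signs were not tested. The interaction tests rest on 1 animal per sex and genotype within the 4 libraries and do not show that the effects were equal.

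Whether the sex difference depended on the 4 libraries was tested the same way, and again 0 genes passed in edgeR, with 701 (3.61%) at an unadjusted p under 0.05 and 3 past the threshold in DESeq2. Without wild type female 2, 4 genes passed in edgeR, and without heterozygous male 1 or heterozygous male 2, 1 did. The smallest unadjusted p belonged to Nrp1, a guidance and VEGF co-receptor, at 43.9, 27.99, 38.96 and 32.999 CPM in the 4 libraries and 19.9, 25.5 and 28.2 CPM in the others (interaction -0.67, female minus male). Cldn1, a tight junction protein of choroid plexus and meninges, was at 7.08, 2.12, 4.66 and 3.05 CPM (interaction -1.69), and the sugar transporter gene Slc2a12 at 6.28, 3.11, 6.20 and 4.24 CPM (-1.06). In all 3 genes both number 2 males lay above both number 2 females, and the adjusted p in edgeR was 1. Choroid plexus markers moved with this split, since their sum was 295 and 256 CPM in the males and 30.8 and 165 CPM in the females, and their part in it was not tested. Of the 24 leading genes, 4 had an unadjusted p under 0.05 for this term.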

How the data were processed

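RNA from the cortex of single mice was sequenced as polyA libraries, and the authors deposited raw read counts per gene, whole numbers, in 1 table of 55359 genes per age. Reads were aligned with STAR 2.7.9a to mm39 and counted with featureCounts of Subread, per the submitters' processing notes; how strand was treated is not stated by them, and antisense or overlapping genes may share reads. RefSeq promoter sequences are on GRCm38.p6, and no other coordinates are given. Libraries were matched to columns by name.

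The P25 counts were fitted with edgeR 4.0.16 (R 4.3.3) by its quasi-likelihood test with robust dispersion, after filterByExpr, with TMM scaling, sex and genotype as covariates and Benjamini-Hochberg adjustment over 19445 genes at 0.05. DESeq2 1.42.0, RLE scaling, other filters, single genotypes or sexes, and each library left out were alternatives. Reads without molecular identifiers are not independent molecules. Pairs of libraries of 1 group differed by a chi-square per degree of freedom of 8.08 or more. Scripts were tested on simulated counts.

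The libraries, the 40 lists of genes and the rule for leading genes (12 per direction with the largest difference among genes at 1 CPM or more, past the threshold and without overlap; in lists, members past the threshold or without overlap, and listed activity genes) were chosen with earlier results of these data known. Another 6 lists were written after the leading genes were seen. Beyond this rule, genes named for a list (Snap25, Tbr1, Pvalb, Npy, Ndn, Peg10, Usp29, Dbp and Hbb-bs) were picked after their values were seen. The values of 1 gene of the mature neuron list that passed are not reported here.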

Additional observations from a re-analysis of the deposited data

Results flagged for a closer look

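Among 148 checks (74 quantities, each in the 4 libraries of number 2 and in the other 8), 13 had 1 library far from the rest by Dixon's criterion; chance marks about 1 in 20 such groups. Within the 4 libraries, heterozygous male 2 was apart in Arhgap36 (3.83 CPM, next 2.09 CPM), heterozygous female 2 in the summed cerebellum markers (93.2 CPM, next 14.3 CPM), and wild type female 2 in Ide (63.2 CPM, next 98.7 CPM) and in the summed hypoxia-response genes (777 CPM, next 719.9 CPM). Among the other 8, heterozygous female 3 was apart in Ide (111 CPM, next 71.6 CPM), in the summed colony and substrain genes (204 CPM, next 156 CPM), which contain Ide, and in hippocampus markers (76.8 CPM, next 57.9 CPM). Heterozygous male 3 was low in subplate and layer 6b markers (91.1 CPM, next 106 CPM), in mature oligodendrocyte and myelin markers (6197 CPM, next 8489 CPM) and in new oligodendrocyte markers (324 CPM, next 386 CPM). Wild type female 3 was high in mitochondrially encoded genes, at 75933 CPM (next 65711 CPM) and 7.60% of counts (next 6.50%). Wild type female 1 was the deepest library, with 108257517 counts (next 36558848).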

How the results depend on the processing

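The number of genes past the threshold between the 4 libraries and the other 8 was 435, and it rested on single libraries. Leaving 1 library out gave 102 to 493 genes, with 102 without wild type male 2, 177 without heterozygous female 2 and 211 without heterozygous male 2. Without wild type female 2 the number was 489. It was 704 with DESeq2 and 1110 with no low-count filter. In part of the libraries it was 134 (wild type), 22 (heterozygous), 440 (males) and 29 (females), and 595 or 652 with number 1 or number 3 alone as the other libraries. It was 100 with the choroid plexus level as covariate; this setting and the single sexes were chosen after seeing the data. DESeq2 gave 523 genes against number 1 and 602 for number 1 against number 3; the cause of these shifts was not tested. RLE scaling gave 432 genes. Medians of some lists changed sign: choroid plexus went from 1.15 to -0.10 and rapid activity-response genes from -0.26 to 0.12 in females alone, and cerebellum went from 1.37 to -0.25 without heterozygous female 2 and to -0.82 in wild type alone; several medians nearer 0 also did. Of the 24 leading genes, none changed direction, which the choice of genes without overlap largely fixes in advance. Dlk1 and Trh passed in 24 of 24 settings, Cpne7 in 8 and Gm31518 in 3. In heterozygous libraries alone 2 of the 24 leading genes passed and in wild type alone 17. In females alone 6 of them passed and in males alone 19.

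For genotype, 17 genes passed with DESeq2, 21 with no low-count filter, 3 with the 4 libraries as covariate, and 1 to 2 with 1 library left out (2 without wild type female 3). With the replicate number as a replicate block 6 passed, and with number and sex as a block, added later, 32 (9 higher, 23 lower). Deviations of libraries with the same number correlated at 0.118 to 0.302 in number 2, 0.0810 to 0.234 in number 3 and -0.0154 to 0.186 in number 1, against -0.259 to 0.0831 between numbers. Of the wild type and heterozygous pairs of the same sex and number, male 1 was at 0.0238 and the other 5 at 0.118 to 0.302. Libraries of a number thus tended to deviate together, but not in every pair, and the labels do not say which libraries shared a litter, so pairing by number was not established. For the genotype interaction 4 genes passed with no low-count filter and 0 to 5 with 1 library left out (5 without heterozygous male 2); for the sex interaction 3 passed with DESeq2, 48 with no low-count filter and 0 to 4 with 1 library left out (4 without wild type female 2, 1 without heterozygous male 1 or heterozygous male 2). Depth limits the low leading genes, of which Dio3 had 8 counts and Gpr101, Dlk1 and Trh 17 or 18 in their lowest library.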
